A study of Homo sapiens with 8 samples.

Results

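The 38 genes described here are the aminoacyl-tRNA synthetases of human cells and their scaffold proteins: 19 enzymes of the cytosol (names with 1, A or B), 3 scaffold proteins without enzymatic activity (AIMP1, AIMP2 and EEF1E1) and 16 enzymes of the mitochondria (names ending in 2). They are taken as a gene family by name, with no threshold on a measured value, and make up 38 of the 12235 genes listed in the study. The samples were HEK293T cells, an established wild-type human embryonic kidney line immortalized by SV40 large T. Cells were kept in sufficient medium (Suff) or starved overnight in medium without arginine (Arg-), leucine (Leu-) or methionine (Met-), all built from the same custom DMEM with dialyzed serum, so that the Suff cells also grew in reconstituted medium and the Met- cells still received cysteine. Each of the 4 media was profiled with cycloheximide, which halts elongating ribosomes, and without it. Of the 8 libraries each stands for a different condition, so the spread between cultures is unknown and no difference between media was tested.

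An aminoacyl-tRNA synthetase joins 1 amino acid to the tRNAs that decode it, so that each enzyme serves the codons of its own amino acid. The cytosolic and the mitochondrial enzymes are encoded in the nucleus, mostly by separate genes, and both are translated by cytosolic ribosomes. When an amino acid runs short its tRNAs can lose their charge. The kinase GCN2 is then activated and phosphorylates eIF2α, and the transcription factor ATF4 is made in larger amounts. In these cells the authors found more phosphorylated eIF2 without arginine or leucine, but no effect of lacking methionine. Phosphorylation is not part of the values described here. ATF4 is known to bind the promoters of amino acid transporters, of biosynthetic enzymes and of many cytosolic synthetases.

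Ribosome profiling counts the mRNA fragments that ribosomes protect from nuclease. The values are RPKM, footprint numbers divided by coding length and by the library's total. A value is thus a share of its own library, and the amount of an mRNA and its use by ribosomes cannot be told apart. The libraries without cycloheximide held 1302523 to 3139745 reads on coding sequences and list genes down to 5 reads, and those with cycloheximide held 538222 (Met-) to 6434043 (Leu-) and list none with under 64. All 38 members were listed without cycloheximide in each medium, at 10 RPKM or more, against 28 in Suff, 36 in Arg-, 35 in Leu- and 19 in Met- with it. For this reason the series without cycloheximide carries most of the description. Of 6 genes known to be expressed in HEK293T cells, 5 or 6 were listed without cycloheximide, with PAX2 absent in Suff and Arg-. Of 8 genes that mark other cell types, COL1A1 alone was listed, and their summed level without cycloheximide was at most 4.19 RPKM. With cycloheximide 3, 4, 4 and 2 of the 6 genes were listed in Suff, Arg-, Leu- and Met-. COL1A1 had 20.2 RPKM in that Suff library and was not listed in the starved ones.

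In Suff medium without cycloheximide the cytosolic enzymes and scaffolds had a median density of 75.7 RPKM and the mitochondrial enzymes 27.0, with a median of 17.5 over all listed genes. The tyrosine enzyme YARS1 stood highest at 314 RPKM. It was followed by FARSA, the catalytic subunit of the phenylalanine enzyme, at 237, and by the serine enzyme SARS1 at 177. The lowest of the cytosolic genes was CARS1, the cysteine enzyme, at 17.2 RPKM. Mitochondrial levels ran from 10.5 RPKM for the valine enzyme VARS2 to 67.3 for the tyrosine enzyme YARS2. FARSB, which forms the phenylalanine enzyme together with FARSA, had 74.1 RPKM, under the value of its partner. The order of the groups was not the same in Suff with cycloheximide, where genes with under 64 reads are not listed. There the 19 listed cytosolic members had a median of 27.6 RPKM and the 9 listed mitochondrial enzymes 32.7, with 59.3 over all listed genes. AIMP2 stood highest there at 288 RPKM.

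**Figure D1:**
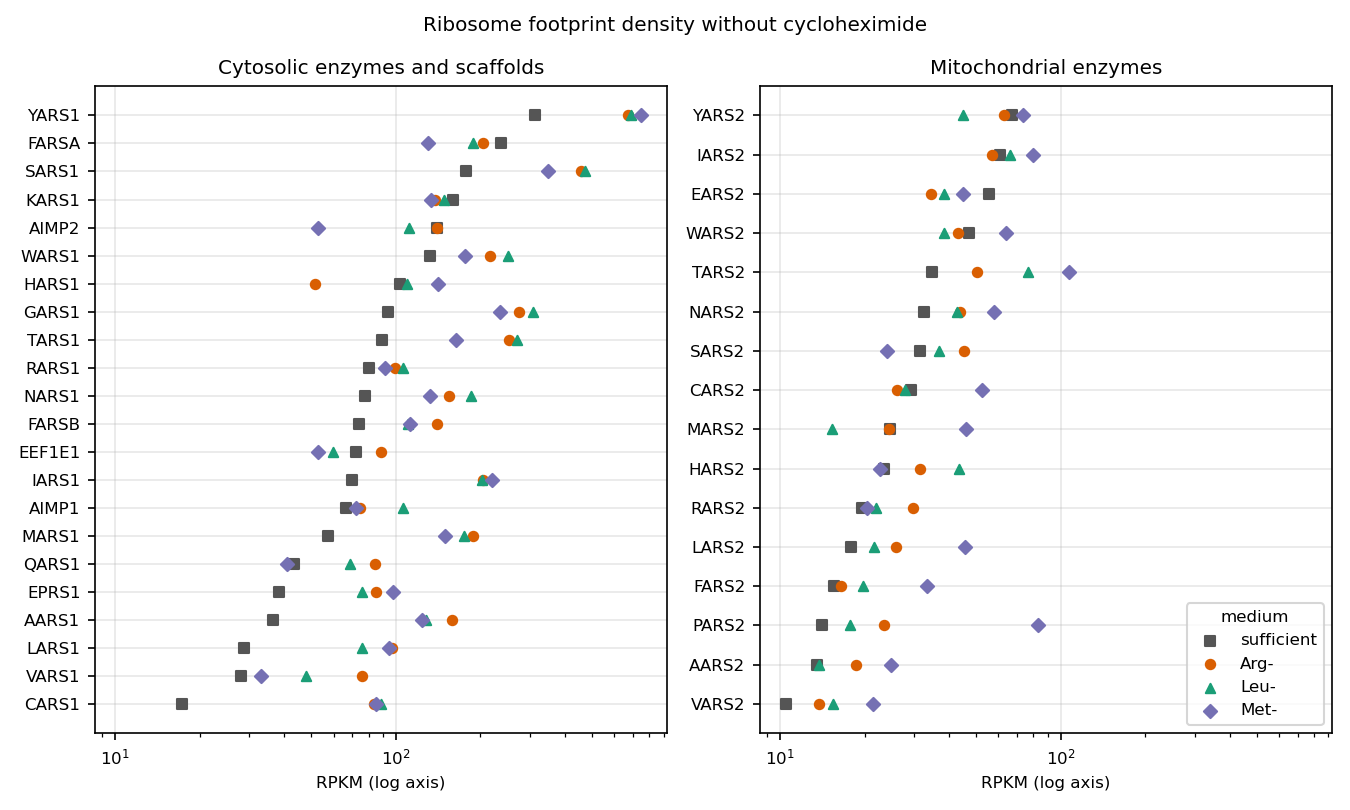
Ribosome footprint density (RPKM, log axis) of each member in the 4 libraries without cycloheximide, 1 point per library. Cytosolic genes such as CARS1, AARS1 and LARS1 lie far to the right of their Suff value in all starved media, whereas most mitochondrial genes lie near theirs in Arg- and Leu-.

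As a group, cytosolic synthetase mRNAs had higher footprint densities in each starved medium than in Suff. Mitochondrial ones had smaller ratios in Arg- and Leu-, and larger ones in Met-, where the ratios of all genes were also higher. Each log2 ratio sets a starved library over the Suff library of the same series, after 1 was added to both RPKM values. Without cycloheximide the median of the 22 cytosolic enzymes and scaffolds was 1.04 in Arg-, 0.94 in Leu- and 0.68 in Met-. The medians of the 16 mitochondrial enzymes were 0.39, 0.18 and 0.81 in the same order. Over all genes with a mean of at least 10 RPKM in the pair of libraries the medians were -0.02 in Arg- (7466 genes), 0.14 in Leu- (7565 genes) and 0.31 in Met- (7897 genes). The 3 comparisons share the Suff library, so their errors are not independent.

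In Arg-, 11 of the 22 cytosolic enzymes and scaffolds were at least 2-fold higher than in Suff, and 0 of the 16 mitochondrial enzymes were. Among all genes 8.33% were. In Leu- the numbers were 10 and 1, against a background of 6.89%. In Met- they were 8 and 4, where the background was much larger at 20.2%. A level at least 2-fold lower was seen in 1 member, the scaffold AIMP2 in Met-, where 5.47% of all genes were lower by that much; the shares in Arg- and Leu- were 6.05% and 2.12%. When ratios were read relative to the median of all genes, the numbers at least 2-fold above it were 12 and 0 in Arg-, 9 and 0 in Leu-, and 7 and 2 in Met-. The medians relative to it were 1.07 for the cytosolic and 0.41 for the mitochondrial members in Arg-, 0.80 and 0.04 in Leu-, and 0.37 and 0.50 in Met-. On this scale 11 of the 16 mitochondrial enzymes were above the median of all genes in Arg-, 9 in Leu- and 11 in Met-, so the mitochondrial values of Arg- and Met- were close.

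**Figure D2:**
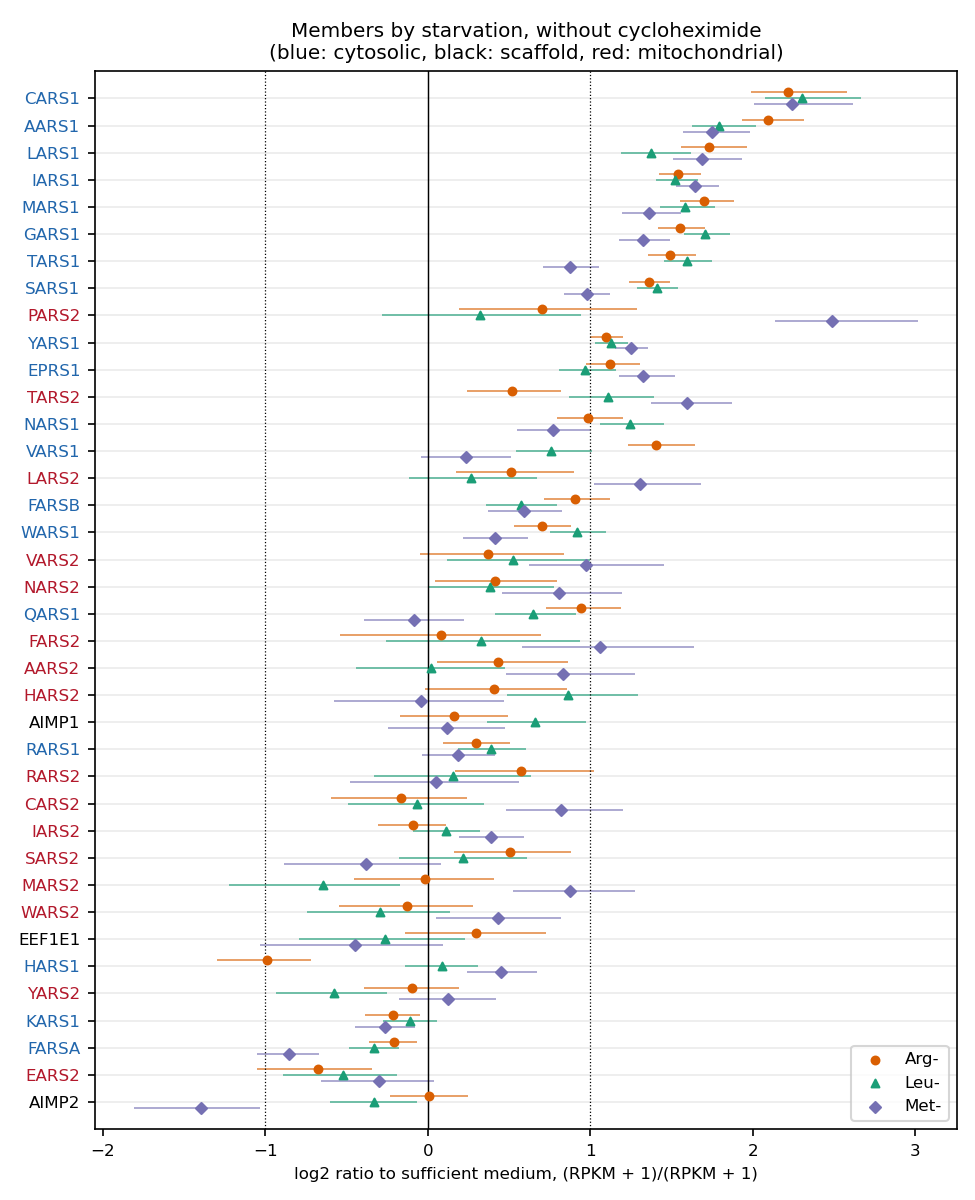
Log2 ratio of each starved library to the Suff library without cycloheximide for all 38 members, ordered by the mean of the 3 ratios, with 95% counting intervals as lines and dotted lines at 2-fold. Cytosolic names (blue) fill the top and mitochondrial names (red) most of the middle, with PARS2 standing far out in Met- alone.

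**Figure D3:**
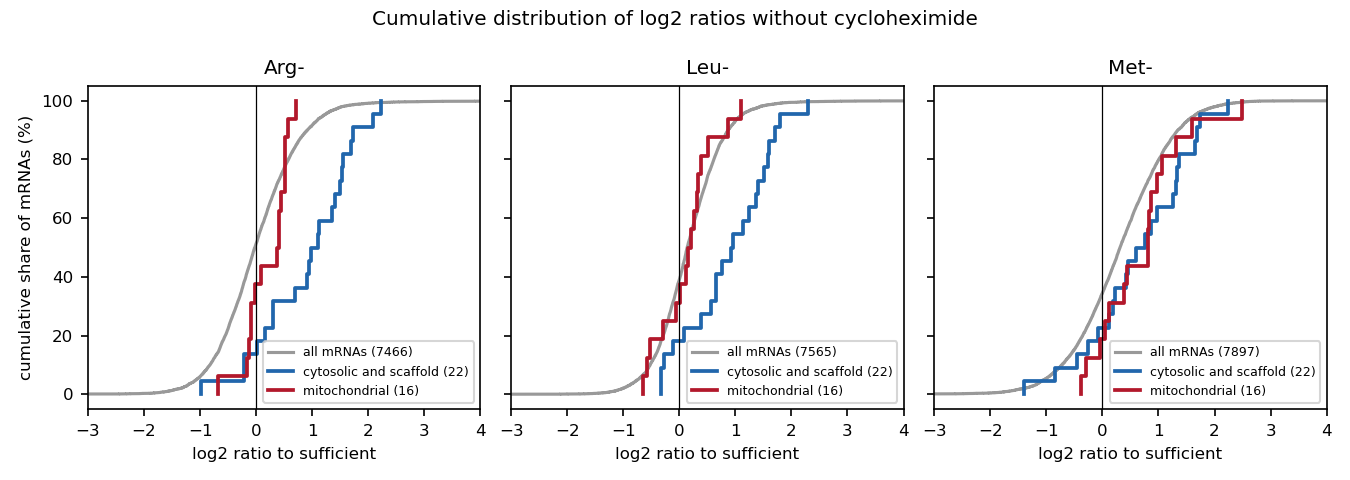
Cumulative share of genes (y axis, %) against the log2 ratio to Suff without cycloheximide, for all genes that passed the filter, the 22 cytosolic and scaffold members and the 16 mitochondrial members. The cytosolic curve lies to the right of all genes in Arg- and Leu-, the mitochondrial curve stays close to all genes in Leu-, and the curves of both compartments run together in Met-.

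Without cycloheximide, the cytosolic genes at least 2-fold higher all belonged to a set of 13 synthetases that are often listed as ATF4 targets. The set holds AARS1, CARS1, EPRS1, GARS1, IARS1, LARS1, MARS1, NARS1, SARS1, TARS1, VARS1, WARS1 and YARS1. Of these 13, 11 passed 2-fold in Arg-, 10 in Leu- and 8 in Met-, and every one of them had a ratio above 0 in each medium, as did 48.6%, 61.0% and 65.5% of all genes. Their median log2 ratios were 1.49, 1.41 and 1.32. The other 9 cytosolic members, among them the lysine, arginine, histidine and phenylalanine enzymes, had medians of 0.16, 0.09 and -0.08. In this series 0 of 9 passed 2-fold in any medium. The set was chosen with earlier results of these data known, so the split describes the values and does not test the grouping. With cycloheximide most of the other enzymes listed also passed 2-fold in Arg- and Leu-, as given below.

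CARS1, which charges cysteine tRNA, had the largest mean ratio. Its density was 17.2 RPKM in Suff, 83.8 in Arg-, 88.9 in Leu- and 85.2 in Met-. The starved values lay close together, all far above Suff. Its log2 ratios were 2.22 (95% counting interval 1.99 to 2.58), 2.30 (2.07 to 2.67) and 2.24 (2.004 to 2.61). These intervals come from the reads alone, cover counting error only, and are set on the ratio without the added 1.

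The alanine enzyme AARS1 came next. It had 36.4 RPKM in Suff, 158 in Arg-, 128 in Leu- and 124 in Met-, with log2 ratios of 2.09 (1.93 to 2.31), 1.79 (1.62 to 2.02) and 1.75 (1.57 to 1.98). Arg- was the highest of its libraries, and Suff the lowest by far. IARS1, the isoleucine enzyme, had 69.9, 205, 202 and 221 RPKM in Suff, Arg-, Leu- and Met-. Its ratios of 1.54, 1.52 and 1.64 were nearly the same in the starved media. GARS1, which charges glycine in both compartments, reached 275 RPKM in Arg-, 307 in Leu- and 235 in Met- from 93.4 in Suff. Its ratios were 1.55, 1.71 and 1.32, so Met- was the lowest of the starved media for this gene.

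Some of the 13 genes differed between media. VARS1, the valine enzyme, had 27.9 RPKM in Suff, 75.6 in Arg-, 47.9 in Leu- and 33.0 in Met-. Its ratio was 1.40 (1.23 to 1.64) in Arg-, 0.76 (0.54 to 1.01) in Leu- and 0.23 (-0.04 to 0.51) in Met-, and the last interval held 0. TARS1, the threonine enzyme, had ratios of 1.49, 1.59 and 0.87, and WARS1, the tryptophan enzyme, 0.70, 0.92 and 0.41. EPRS1, a fused enzyme for glutamate and proline, was highest in Met-, with ratios of 1.12, 0.96 and 1.32.

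At the other end stood KARS1, FARSA and AIMP2. KARS1, which charges lysine in both compartments, had 160.4 RPKM in Suff, 138 in Arg-, 149 in Leu- and 134 in Met-. Its values were close to each other, with log2 ratios of -0.21 (-0.38 to -0.05), -0.11 (-0.28 to 0.06) and -0.26 (-0.45 to -0.08). FARSA had 237, 204, 188 and 131 RPKM in the same order. Its ratios were -0.21, -0.33 and -0.85, so that every starved library was below Suff and Met- was the lowest. Its partner FARSB had ratios of 0.91 (0.71 to 1.12), 0.57 (0.36 to 0.80) and 0.59 (0.37 to 0.83), above 0 in every medium. The subunits of this 1 enzyme thus stood on opposite sides of Suff without cycloheximide, whereas with it both were above Suff in Arg- and Leu-.

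AIMP2 is a scaffold of the multi-synthetase complex, in which several cytosolic enzymes are held together. It had 139.9 RPKM in Suff, 141 in Arg-, 111 in Leu- and 52.6 in Met-. Arg- was level with Suff and Met- was far lower, with a log2 ratio of -1.39 (-1.81 to -1.03). AIMP1, another scaffold and the source of a cytokine-like fragment, had ratios of 0.16, 0.66 and 0.12. EEF1E1, the smallest scaffold, had 0.29, -0.27 and -0.45, all with intervals that included 0. None of these 3 scaffolds passed 2-fold higher in any medium. The 7 enzymes of the complex (EPRS1, IARS1, KARS1, LARS1, MARS1, QARS1 and RARS1) had medians of 1.12, 0.96 and 1.32, with 4, 3 and 4 at least 2-fold higher. The 12 cytosolic enzymes outside it had medians of 1.23, 1.19 and 0.82, with 7, 7 and 4 at least 2-fold higher, beside 8.33%, 6.89% and 20.2% of all genes.

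HARS1, the histidine enzyme, had the widest range of ratios among the cytosolic enzymes. It had 103 RPKM in Suff, 51.5 in Arg-, 110 in Leu- and 142 in Met-. Arg- alone was below Suff, with a ratio of -0.99 (-1.30 to -0.72), against 0.09 (-0.14 to 0.31) in Leu- and 0.45 (0.24 to 0.67) in Met-. Its gene on chromosome 5 (GRCh38, chr5:140673035-140691537, minus strand) overlaps that of HARS2 (chr5:140691430-140699305, plus strand) at their starts.

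Promoters of the cytosolic enzymes were searched for the ATF4 element (C/EBP-ATF response element), spelled TGATGNAA, on both strands, from 250 bases before to 50 after the start given by each RefSeq promoter. RefSeq promoters (GRCh38.p14) were given for 16 of the 19 cytosolic enzymes, all 3 scaffolds and 14 of the 16 mitochondrial enzymes. LARS1, VARS1, YARS1, AARS2 and VARS2 have no entry. A promoter with the element was found for 7 of the 16 cytosolic genes (43.8%), 0 of 3 scaffold genes and 1 of 14 mitochondrial genes (7.14%). Among all genes with a promoter it was found for 1217 of 27305 (4.46%). A gene was counted if any of its promoters matched, and CARS1, GARS1 and TARS1 have 2 each. The 30 bases around each match are shown because the cytosolic genes that hold it were, as a group, among those with the highest ratios. Capitals mark the element, on the strand of the gene.
AARS1, chr16:70289675-70289704, minus strand: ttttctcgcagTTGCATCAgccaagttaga
CARS1, chr11:3057407-3057436, minus strand: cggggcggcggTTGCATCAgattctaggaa
GARS1, chr7:30594834-30594863, plus strand: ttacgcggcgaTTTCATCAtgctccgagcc
IARS1, chr9:92293692-92293721, minus strand: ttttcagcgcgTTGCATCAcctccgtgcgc
MARS1, chr12:57488053-57488082, plus strand: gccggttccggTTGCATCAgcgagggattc
NARS1, chr18:57621804-57621833, minus strand: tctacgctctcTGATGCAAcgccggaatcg
TARS1, chr5:33440956-33440985, plus strand: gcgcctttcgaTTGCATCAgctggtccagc
YARS2, chr12:32756076-32756105, minus strand: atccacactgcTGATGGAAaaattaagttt

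AARS1, CARS1, IARS1, MARS1, NARS1 and TARS1 share the same 8 letters, TGATGCAA or its reverse complement TTGCATCA, which stand in a promoter of 1.08% of all genes. In CARS1, IARS1, MARS1, NARS1 and TARS1 the element starts within 15 bases of the annotated gene start, in GARS1 33 bases before it and in AARS1 187 bases before it. YARS2, the mitochondrial tyrosine enzyme and the only mitochondrial match, holds it 197 bases before the start in a form with another base at position 6. Without cycloheximide the 7 cytosolic enzymes with the element had median log2 ratios of 1.55, 1.59 and 1.36 in Arg-, Leu- and Met-, and 6, 7 and 5 of them were at least 2-fold higher. The 9 without it had medians of 0.70, 0.57 and 0.41, and 2, 1 and 1 were at least 2-fold higher. Among all genes that passed the filter the medians were -0.02, 0.14 and 0.31, and 8.33%, 6.89% and 20.2% were at least 2-fold higher. SARS1 and EPRS1, the 2 that reached 2-fold higher without a match in this window, had ratios of 1.36 and 1.12 in Arg-. YARS2 had 67.3, 62.8, 44.7 and 73.4 RPKM in Suff, Arg-, Leu- and Met-, and none of its starved values reached 2-fold higher. A match of letters is a description of the sequence, and binding was not measured here.

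Without cycloheximide the enzymes of the omitted amino acids did not lead their groups in the matching medium. RARS1, which charges arginine, had 80.5 RPKM in Suff, 98.9 in Arg-, 106 in Leu- and 91.8 in Met-. Its ratio in Arg- was 0.29 (0.09 to 0.50), place 16 from the top of 19 cytosolic enzymes, and its libraries were all close to each other. RARS2, the mitochondrial arginine enzyme, had 19.6, 29.7, 21.9 and 20.3 RPKM, with Arg- the highest. Its ratio of 0.57 (0.17 to 1.02) in Arg- was place 2 of 16 among the mitochondrial enzymes. With cycloheximide, RARS2 was place 1 of the 9 mitochondrial enzymes listed in both libraries in Arg-, at 1.59. RARS1 was place 10 of 18 cytosolic enzymes there.

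LARS1, the leucine enzyme and a known leucine sensor upstream of mTORC1, had 28.7 RPKM in Suff, 97.2 in Arg-, 75.9 in Leu- and 94.4 in Met-. All starved libraries were far above Suff, and Leu- was the lowest of them. Its ratio in Leu- was 1.37 (1.19 to 1.62), place 8 of 19, against 1.73 (1.56 to 1.96) in Arg- and 1.68 (1.51 to 1.93) in Met-. LARS2 had 17.9, 25.9, 21.7 and 45.6 RPKM in Suff, Arg-, Leu- and Met-, with Met- well above the others. Its ratio in Leu- was 0.27 (-0.12 to 0.67), place 7 of 16.

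MARS1, the methionine enzyme, had 57.5 RPKM in Suff, 189 in Arg-, 174 in Leu- and 149 in Met-. Here too the medium without its own amino acid gave the lowest of the starved values. With cycloheximide Met- gave the highest, there on another transcript of the gene. Its ratio in Met- was 1.36 (1.19 to 1.56), place 5 of 19. MARS2, its mitochondrial counterpart, had 24.7, 24.4, 15.4 and 46.1 RPKM, with Leu- below Suff and Met- above it. Its ratios were -0.02 (-0.45 to 0.41), -0.65 (-1.22 to -0.17) and 0.88 (0.52 to 1.28), and that in Met- was place 6 of 16.

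Among the mitochondrial enzymes PARS2, TARS2 and LARS2 had the largest mean ratios. PARS2, which charges proline, had 14.1 RPKM in Suff, 23.5 in Arg-, 17.8 in Leu- and 83.3 in Met-. Met- stood far above the other libraries, with a log2 ratio of 2.49 (2.14 to 3.01), the largest of all 38 members in that medium. TARS2, the threonine enzyme, had 34.8, 50.4, 76.2 and 107 RPKM. Its ratios were 0.52 (0.24 to 0.82) in Arg-, 1.11 (0.87 to 1.39) in Leu- and 1.59 (1.37 to 1.87) in Met-. It was the 1 mitochondrial enzyme at least 2-fold higher in Leu-. In Met- the 4 at that level were PARS2, TARS2, LARS2 at 1.30 (1.02 to 1.68) and FARS2, the phenylalanine enzyme, at 1.06 (0.58 to 1.64). EARS2, the glutamate enzyme, was below Suff in each starved medium, with 55.6 RPKM in Suff, 34.4 in Arg-, 38.3 in Leu- and 45.0 in Met-. In Arg- the mitochondrial ratios lay between -0.68 and 0.70, and 10 of the 16 were above 0.

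Starved libraries were also set against each other, which leaves out the Suff library. Between Met- and Leu- the median log2 ratio was -0.21 for the cytosolic enzymes and scaffolds and 0.59 for the mitochondrial enzymes, with 0.15 over 8133 genes. Of the mitochondrial enzymes 13 of 16 were higher in Met- than in Leu-, against 59.4% of all genes, and 3 were so by at least 2-fold (background 10.2%). These were PARS2 at 2.17 (1.71 to 2.78), MARS2 at 1.52 (1.05 to 2.14) and LARS2 at 1.04 (0.69 to 1.46). HARS2, RARS2 and SARS2 were the exceptions, at -0.91, -0.10 and -0.59. The cytosolic AIMP2 was at least 2-fold lower in Met- than in Leu-, where the background was 5.07%.

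Between Met- and Arg- the medians were -0.26 and 0.52, with 0.29 over 8057 genes. Again 13 of 16 mitochondrial enzymes were above 0, here against 68.0% of all genes, and 2 of them, PARS2 and TARS2, by at least 2-fold (background 15.2%), as was the cytosolic HARS1 at 1.44 (1.15 to 1.77). VARS1, QARS1 and AIMP2 were at least 2-fold lower in Met- than in Arg- (background 3.79%), at -1.17, -1.03 and -1.40. QARS1, the glutamine enzyme, had 43.4 RPKM in Suff, 84.3 in Arg-, 68.6 in Leu- and 40.9 in Met-. Between Arg- and Leu- the cytosolic median was -0.01 and the mitochondrial 0.10, with -0.15 over 7725 genes. Relative to the median of all genes that cytosolic value turned to 0.14. HARS1 was the 1 member that differed by at least 2-fold there, lower in Arg- at -1.07 (-1.41 to -0.78), where 3.65% of all genes were.

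For 13 amino acids both a cytosolic and a mitochondrial enzyme are members. In Arg- the cytosolic enzyme had the higher ratio in 11 of 13 pairs, with HARS1 and RARS1 as the exceptions. In Leu- it did so in 12, with HARS1 as the exception, and in Met- in 9, with NARS1, TARS1, VARS1 and WARS1 as the exceptions. The median difference, cytosolic minus mitochondrial, was 1.04, 1.19 and 0.48 on the log2 scale. The cysteine pair differed most in each medium. CARS1 exceeded CARS2 by 2.39 in Arg-, by 2.37 in Leu- and by 1.42 in Met-.

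As a share of all reads on coding sequences without cycloheximide, the 13 often-listed ATF4 targets took 0.246% (95% exact binomial interval 0.241 to 0.252) in Suff and 0.652% (0.639 to 0.664) in Arg-. In Leu- they took 0.644% (0.631 to 0.656) and in Met- 0.583% (0.570 to 0.596). The other 9 cytosolic members took 0.148%, 0.157%, 0.157% and 0.131%, so their share moved little in this series. With cycloheximide it did not stay level: they took 0.0706% in Suff, 0.180% in Arg-, 0.135% in Leu- and 0.0752% in Met-. Members not listed in a library count as 0 there. The mitochondrial enzymes took 0.0920% (0.0887 to 0.0954) in Suff, 0.102% (0.0971 to 0.107) in Arg-, 0.103% (0.0981 to 0.108) in Leu- and 0.151% (0.145 to 0.158) in Met-. Met- was thus the medium with the highest mitochondrial share. The median log2 ratio of all genes was also highest there, at 0.31, against -0.02 in Arg- and 0.14 in Leu-. Relative to that median, the mitochondrial values of Arg- and Met- were close, as given above. The intervals cover counting error only, because each condition had 1 library and the spread between cultures is unknown. Any PCR copies left among the reads would make them too narrow.

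**Figure D4:**
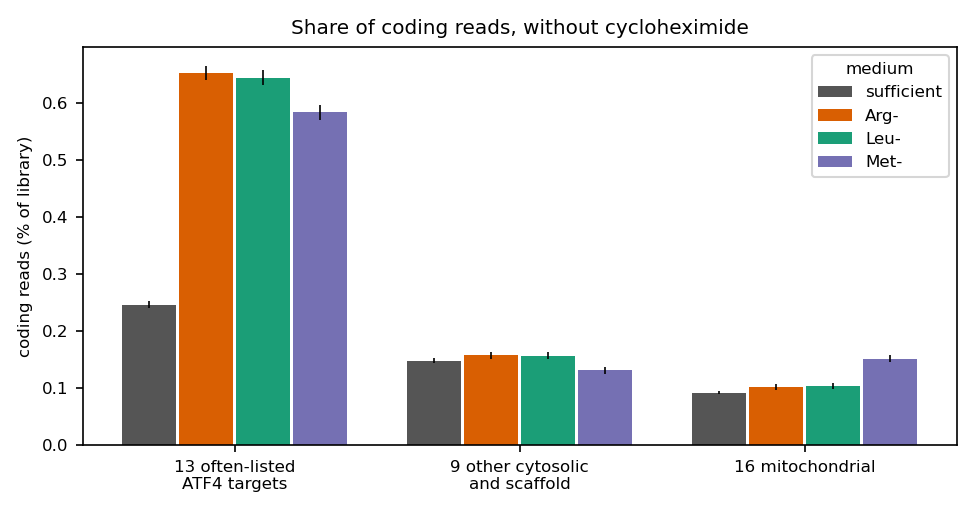
Share of all reads on coding sequences (y axis, %) taken by 3 groups of members in the 4 libraries without cycloheximide, with 95% exact binomial intervals as error bars (counting error only). The 13 ATF4 targets take 0.246% in Suff and 0.583% or more in the starved media, the other cytosolic members stay between 0.131% and 0.157%, and the mitochondrial enzymes are highest in Met-.

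The series with cycloheximide has its own Suff library and hence separate ratios. With unlisted genes counted as 0 and the same filter, 19 of 21 cytosolic enzymes and scaffolds were at least 2-fold higher in Arg- (29.7% of all genes), 17 of 20 in Leu- (26.3%) and 9 of 16 in Met- (21.0%). Of the mitochondrial enzymes 6 of 12, 3 of 11 and 6 of 9 were. A gene that is not listed had under 64 reads, so its true level may be well above 0, and members listed in both libraries of a pair give the safer counts. These were 17 of 19 cytosolic members in Arg- (16.2% of all genes listed in both), 16 of 19 in Leu- (11.6%) and 9 of 12 in Met- (46.7%), and 3 of 9, 1 of 9 and 5 of 6 mitochondrial enzymes. Among them the cytosolic medians were 2.07, 1.34 and 1.36 and the mitochondrial medians 0.95, 0.43 and 1.77, with -0.21, 0.01 and 0.89 over all genes. The Met- library was by far the shallowest of this series, and its list holds only the better covered genes. For most members an absence from the Met- list therefore does not show a level below Suff: AARS1 had 12.5 RPKM in Suff, and 64 reads of it in Met- would already be 40.9 RPKM. WARS1 was an exception, with 104 RPKM in Suff and less than 84.2 RPKM, the value of 64 reads, in Met-.

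Among the members listed in both libraries, TARS1 had the largest ratio in Arg- and Leu- with cycloheximide. It had 26.6 RPKM in Suff, 318 in Arg-, 187 in Leu- and 141 in Met-, and every starved library was far above Suff. Its log2 ratios were 3.53 (3.34 to 3.82), 2.77 (2.57 to 3.06) and 2.36 (2.08 to 2.74). MARS1 had 28.6, 212, 116 and 263 RPKM, and its ratio of 3.16 (2.88 to 3.53) in Met- was place 1 of 11 listed cytosolic enzymes. RARS1 had 23.3 RPKM in Suff, 101 in Arg- and 60.5 in Leu-, with ratios of 2.07 (1.84 to 2.41) and 1.34 (1.10 to 1.67). These were larger than its 0.29 and 0.39 without cycloheximide. AIMP2 had the lowest ratios of the cytosolic members, at 0.33, -0.34 and -0.96.

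Ratios in Arg- and Leu- were larger with cycloheximide for most members listed in all 4 libraries. In Arg- the median of these was 1.62 with it and 0.64 without, and in Leu- 1.21 and 0.61. The 12 listed ATF4 targets had medians of 2.52 in Arg- and 1.75 in Leu- with cycloheximide. The 9 listed mitochondrial enzymes had 0.95 with it and -0.09 without in Arg-. The 6 other cytosolic enzymes had medians of 1.61 in Arg- and 1.27 in Leu- with cycloheximide, and 5 of 6 were at least 2-fold higher in each. Of all genes listed in both libraries 16.2% and 11.6% were. Without cycloheximide 0 of 6 were at least 2-fold higher, with medians of 0.04 and 0.24, beside 8.33% and 6.89% of all genes. FARSA was at 1.43, 1.01 and 1.18 with cycloheximide against -0.21, -0.33 and -0.85 without it. Across the members listed in all 4 libraries, Spearman's rho between the series was 0.81 in Arg- (28 members), 0.84 in Leu- (28) and 0.52 in Met- (18). These are descriptions across genes, which share their libraries. The series differed in cycloheximide, in the lowest read number listed and, by the names of the tables, in removal of duplicate reads, and these cannot be told apart.

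**Figure D5:**
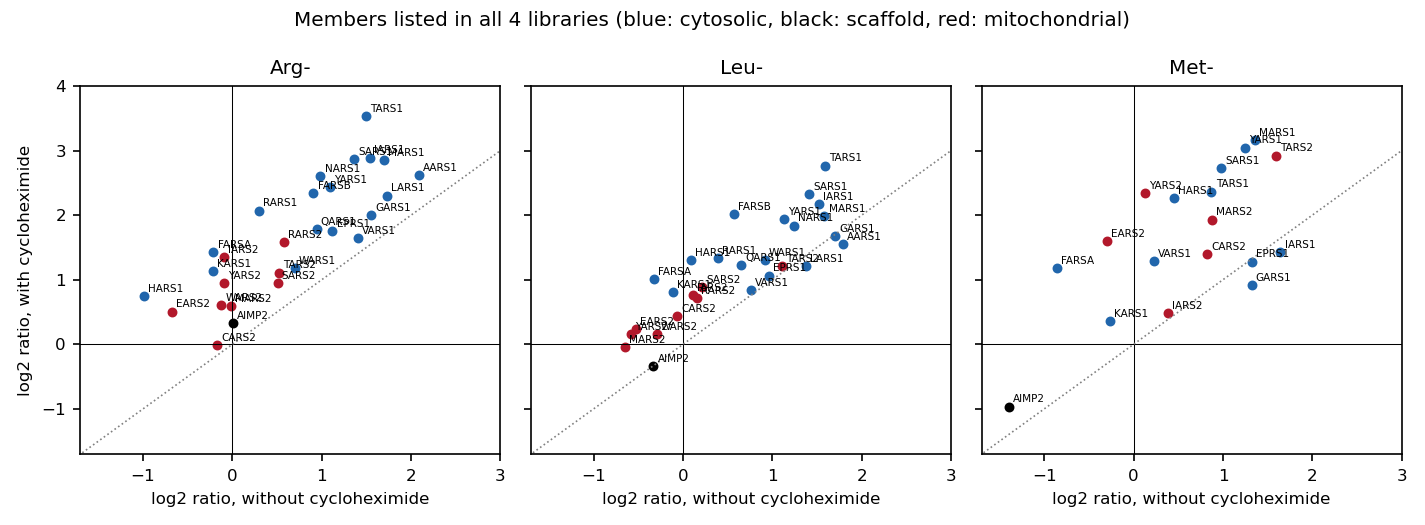
Log2 ratio to Suff of each member listed in all 4 libraries, without cycloheximide (x axis) and with it (y axis), with a dotted line of equality. Most members lie above the line in Arg- and Leu-, FARSA and HARS1 lie on opposite sides of 0 in Arg-, and AIMP2 lies near or below 0 in both series in Leu- and Met-.

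Genes of the pathways around the synthetases were counted the same way without cycloheximide. Of 26 genes of the integrated stress response 23 passed the filter. Of these, 20, 20 and 19 were at least 2-fold higher in Arg-, Leu- and Met-, with medians of 2.11, 1.96 and 1.65. Among all genes 8.33%, 6.89% and 20.2% were. DDIT3 and PPP1R15A in each medium, and ATF5 in Met-, were so low in Suff that they passed only through the starved library. Their calls, which are part of these counts, were thus fixed in advance. ATF4 itself had 251 RPKM in Suff, 700.2 in Arg-, 1098 in Leu- and 662 in Met-. ASNS, which makes asparagine and is a known ATF4 target, had 68.0, 689, 607 and 392 RPKM. Both genes were higher in every starved medium. Of 17 genes of tRNA charging and delivery outside the synthetases, 3 of 15 that passed were at least 2-fold higher in Arg-, 1 of 14 in Leu- and 3 of 15 in Met-, with medians of -0.12, -0.09 and -0.21. The counts in Leu- and Met- were near the background of all genes (6.89% and 20.2%), and that in Arg- rests on 3 genes (8.33%). The genes were SEPSECS and PSTK, both of selenocysteine tRNA synthesis, and EEF1G, a subunit of the elongation factor that reloads eEF1A. SEPSECS, at 3.17 RPKM in Suff, also passed only through the starved library, in Arg- and Met-, which fixed its call in advance. EIF2AK4, the kinase GCN2, had 8.9 RPKM in Suff, 8.4 in Arg-, 8.5 in Leu- and 9.0 in Met-, and these values were nearly the same.

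Only uniquely mapped reads were kept, so stretches shared with another gene give no footprints. In GENCODE release 44, 82.6% of the 28-base windows of EEF1E1, 75.9% of SARS2 and 99.2% of VARS2 also occur in transcripts of another gene, against at most 4.65% for the other members. The values of these 3 genes are therefore uncertain where the authors' annotation held those transcripts. The leucine share of codons had a median of 10.0% in the cytosolic and 11.9% in the mitochondrial members, the methionine share 2.40% and 2.01%, and the arginine share 5.26% and 6.54%, beside 9.75%, 2.12% and 5.64% over all listed transcripts.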

How the data were processed

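Ribosome-protected fragments of HEK293T cells were sequenced in 8 libraries, 1 per medium and cycloheximide condition. The authors trimmed reads, aligned them to the human transcriptome (GRCh38) with Bowtie without mismatches, kept unique hits, and deposited RPKM per Ensembl transcript; the submitters' processing notes also name cutadapt. The names of the tables without cycloheximide mark removal of duplicates, which the methods do not describe. The annotation release is not given in the sources used here.

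Transcripts were matched to GENCODE release 44, with 96.7% to 97.1% found, and the highest transcript per gene was kept. Ratios used a pseudocount of 1.0, which understates changes of low genes, and a minimum mean of 10.0 RPKM. Whole reads were recovered from RPKM and coding length (tolerance 0.0001), for 97.1% to 97.3% of matched transcripts. These served for depth and for the exact 95% intervals of ratios (conditional binomial) and shares (Clopper-Pearson); no count model was run, because a condition had 1 library. A difference was called at 2-fold and not tested. Scripts were tested on simulated data. The members, taken by name, and the gene lists and subgroups, the 13 ATF4 targets among them, were chosen with earlier results of these data known.

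Full values are given for the enzymes of the omitted amino acids, the 5 cytosolic members with the largest and the 3 with the smallest mean ratio, and 3 mitochondrial members with the largest absolute mean; members named beside these were picked after their values were seen. Alternatives were another pseudocount, other filters, summed or fixed transcripts, centred ratios and a read minimum of 64. Python 3.11.15, numpy 2.4.6, scipy 1.17.1 and matplotlib 3.10.9 were used.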

Additional observations from a re-analysis of the deposited data

Results flagged for a closer look

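Some members lay on opposite sides of the Suff level in paired conditions, with both 95% counting intervals clear of 0. Members whose interval held 0 in either library, such as KARS1 in Leu- and IARS2 in Arg-, are not included. None of these differences was tested, because each value comes from 1 library and its Suff library. FARSA was above Suff with cycloheximide and below it without, and its log2 ratio differed between the series by 1.64 in Arg-, 1.34 in Leu- and 2.03 in Met-. HARS1 did the same in Arg-, with a difference of 1.74, and KARS1 in Arg- and Met-, with differences of 1.35 and 0.62. The mitochondrial EARS2 differed by 1.18 in Arg-. For HARS1 and EARS2 the transcript with the highest value was not the same in both series, and the part of this in their differences was not tested. Other members, such as MARS1, TARS1 and SARS2, also changed transcript between the series.

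Within the series without cycloheximide, HARS1 was below Suff in Arg- and above it in Met-, a difference of 1.44 on the log2 scale. MARS2, the mitochondrial methionine enzyme, was below Suff in Leu- and above it in Met-, a difference of 1.52.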

How the results depend on the processing

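Of 211 recomputed values, 188 stayed within their limits (counting error for a median, 1.5 times for a number), 22 moved and 1 changed sign by more than its counting error. The cytosolic Arg- against Leu- median, near 0 at -0.01, became 0.14 on centring, within that error. Without cycloheximide, a minimum of 50 RPKM left 2 mitochondrial enzymes in Arg-, whose median turned to -0.10, and 5 in Met-, with a median of 0.39 and 1 at least 2-fold higher. Centring on the median of all genes (0.14 in Leu-, 0.31 in Met-) gave 0 mitochondrial enzymes at least 2-fold higher in Leu-, and in Met- 2, with medians of 0.37 (cytosolic) and 0.50 (mitochondrial); Met- against Arg- became -0.55 and 0.23. With cycloheximide and a minimum of 50 RPKM, 1 mitochondrial enzyme was at least 2-fold higher in Arg-, 0 in Leu- (median 0.16), and the median was 1.97 in Met-; the Leu- cytosolic median was 1.94, with 11 higher. Without a filter the Arg- mitochondrial median was 1.35 and 7 were higher in Leu-. With genes listed in both libraries 3 mitochondrial enzymes were higher in Arg- and 1 in Leu- (median 0.43). Centring gave 6.07 and 6.44 in Met-, where most genes of the deeper Suff list are absent and the median of all genes was -4.84. With C required at position 6 of the ATF4 element, 0 mitochondrial promoters matched. The fewer genes left by the stricter filter, and the number centred on, set these values by construction. No paired analysis was possible because each condition had 1 library. Depth limits the Met- library with cycloheximide most.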
